A study of Mus musculus with 16 samples.

Results

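Genes of migrating neuroblasts were examined in the medial prefrontal cortex of adult mice. The list held 10 genes, namely Dcx, Sox11, Cd24a, Dlx1, Dlx2, Dlx5, Dlx6, Dlx6os1, Sp8 and Igfbpl1. They were chosen by name, with earlier results of these data known, as genes of neuroblasts and of precursors of olfactory bulb interneurons. All 10 were found by symbol among the 18424 genes of the table. Their levels were described across 4 groups of 4 male C57BL/6N mice at postnatal day 120, and against the level of Eomes in each sample. WT-Veh and WT-Flx mice were wild type. HT-Veh and HT-Flx mice carried, in every cell, 1 copy of Arid1b with a truncating germline allele made by genome editing, which the study's methods give as a deletion at exon 5 with an inserted TT. All pups suckled from dams that drank saccharin water (0.2%) between postnatal days 3 and 21, and in the Flx groups this water also held fluoxetine (0.1 mg/ml), an antidepressant that blocks the serotonin transporter. No group received the drug after weaning, so each Flx sample was taken long after exposure had ended.

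Neuroblasts are young neurons that still migrate. In the adult rodent brain they arise from stem cells along the lateral ventricle, move in chains through the rostral migratory stream and end in the olfactory bulb, where most become GABA-releasing granule and periglomerular neurons. Dcx binds microtubules in migrating neurons, Dlx and Sp family transcription factors direct the interneuron fate, and Cd24a is a surface glycoprotein of neuroblasts that ependymal cells also carry. Several of these genes are not private to neuroblasts. Mature interneurons of the cortex and of the bulb can keep Dlx1, Dlx5, Dlx6 and Dlx6os1, and Sp8 is kept by some of them. Eomes, which encodes a T-box transcription factor, marks the projection neurons of the adult olfactory bulb and intermediate progenitors, and the adult medial prefrontal cortex is not known for it.

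The promoters of 4 members are given because these genes differed in their relation with Eomes, described further on. Sp8 had one of the steepest slopes, Dlx1 and Dlx2 are neighbours whose levels moved together, and Dcx had the smallest slope. Sequences are those of RefSeq on GRCm38.p6, each reading 5′ to 3′ on the strand of the gene, from 250 bases before to 50 bases after the annotated start (the most upstream start where there were several). Entries were matched for 6 of the 10 members (Dcx, Sox11, Dlx1, Dlx2, Dlx6os1 and Sp8). Capitals mark matches on either strand to 4 motifs: TAATTA, a core bound by homeodomain proteins such as the Dlx factors; CAGCTG, an E-box; GGGCGG, a GC box bound by Sp factors, printed as CCGCCC where it lay on the other strand; and ACAAAG, a Sox core. No 2 matches overlapped in these windows.
Dlx1 promoter: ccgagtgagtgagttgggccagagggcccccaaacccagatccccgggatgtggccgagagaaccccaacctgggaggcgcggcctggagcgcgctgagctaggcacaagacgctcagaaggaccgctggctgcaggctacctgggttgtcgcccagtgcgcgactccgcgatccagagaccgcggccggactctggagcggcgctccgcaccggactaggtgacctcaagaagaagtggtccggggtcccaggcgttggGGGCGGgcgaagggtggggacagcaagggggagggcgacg
Dlx2 promoter: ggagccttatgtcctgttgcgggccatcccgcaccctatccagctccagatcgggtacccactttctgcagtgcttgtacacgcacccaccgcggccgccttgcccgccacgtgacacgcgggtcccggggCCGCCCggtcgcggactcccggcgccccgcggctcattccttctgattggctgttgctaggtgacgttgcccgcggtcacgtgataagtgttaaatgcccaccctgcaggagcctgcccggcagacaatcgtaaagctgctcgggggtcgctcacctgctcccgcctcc
Sp8 promoter: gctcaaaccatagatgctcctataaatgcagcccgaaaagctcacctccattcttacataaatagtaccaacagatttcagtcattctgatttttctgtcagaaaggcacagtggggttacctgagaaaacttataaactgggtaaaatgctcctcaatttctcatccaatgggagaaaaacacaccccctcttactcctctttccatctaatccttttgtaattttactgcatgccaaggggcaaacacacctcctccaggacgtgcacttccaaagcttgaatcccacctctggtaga
Dcx promoter: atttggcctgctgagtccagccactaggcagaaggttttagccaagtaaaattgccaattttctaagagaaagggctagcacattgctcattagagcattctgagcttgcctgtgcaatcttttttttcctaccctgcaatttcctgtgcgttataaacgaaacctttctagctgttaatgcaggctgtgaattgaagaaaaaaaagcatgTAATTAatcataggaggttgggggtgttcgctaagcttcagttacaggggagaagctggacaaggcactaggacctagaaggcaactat
The windows lie at chr2:71529195-71529494 on the plus strand for Dlx1, at chr2:71546705-71547004 on the minus strand for Dlx2, at chr12:118846079-118846378 on the plus strand for Sp8 and at chrX:143933170-143933469 on the minus strand for Dcx. For Dlx2 and Sp8 the start used is also the start of the GENCODE gene span, whereas for Dcx it lies 92 bp and for Dlx1 1332 bp inside that span. The Dlx1 and Dlx2 windows were rich in G and C (69.3% and 66.3%, against a median of 52.7% over 32851 windows), and each held 1 GC box. A GC box was found in 35.7% of all windows. The Sp8 window (43.0% G and C) held none of the 4 motifs, and the Dcx window, with the same share, held 1 TAATTA, a motif of 5.29% of windows. Of the members not printed, the Sox11 window held 1 CAGCTG (16.3% of windows) and 2 GGGCGG, and that of Dlx6os1 held 2 TAATTA, 1 CAGCTG and 1 ACAAAG (18.7% of windows). These matches describe the letters of the windows and were not tested against the expression data.

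The genes lie on 6 chromosomes of GRCm38 (GENCODE positions). Dcx (ENSMUSG00000031285) spans chrX:143855842-143933311, Sox11 (ENSMUSG00000063632) chr12:27334264-27342574, Cd24a (ENSMUSG00000047139) chr10:43578284-43584265, Sp8 (ENSMUSG00000048562) chr12:118846329-118852576 and Igfbpl1 (ENSMUSG00000035551) chr4:45809468-45826923. The Dlx genes form pairs. Dlx1 (ENSMUSG00000041911, chr2:71528113-71533981) and Dlx2 (ENSMUSG00000023391, chr2:71543408-71546754) face each other, with the outer starts of their GENCODE spans 18641 bp apart. Dlx6 (ENSMUSG00000029754, chr6:6863334-6868568) and Dlx5 (ENSMUSG00000029755, chr6:6877805-6882085) also face each other. All 5235 bp of the Dlx6 span lie within Dlx6os1 (ENSMUSG00000090063, chr6:6820189-6871592), a long noncoding RNA on the opposite strand. The libraries were stranded, but whether strand was used when reads were assigned is not given in the sources used here, so the levels of Dlx6 and Dlx6os1 are uncertain where they overlap. Dlx5 does not overlap Dlx6os1.

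Values are normalized read counts, that is, estimated reads per gene scaled between samples by the authors. Scaled totals were 26718751 to 29902419 per sample, and the sequencing depth itself is unknown, so no counting intervals are given. Arid1b was at 1787 to 2831 in the 8 WT samples and at 1545 to 2005 in the 8 HT samples. The log2 difference over both treatments was -0.39 (SE 0.080, limma adjusted p 0.0969). The ranges overlapped through the 2 lowest WT samples, WT-Veh replicate 1 (1787) and WT-Flx replicate 1 (1902), and the other WT samples were at 2047 or more. These same samples stood apart in the level of long genes. Relative to its own mean over all samples, the median gene with over 8000 bp of exons (2471 genes) lay below the median gene with under 2000 bp (1130 genes) by a log2 value of -0.58 in WT-Veh replicate 1 and -0.54 in WT-Flx replicate 1. In the other 14 samples this value ran from -0.088 to 0.20. Comparisons of the members that hold 1 or both of these samples are therefore also given without them. Arid1b (12600 bp of exons), Dcx (12647 bp) and Sox11 (8311 bp) are long genes in this sense.

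**Figure D1:**
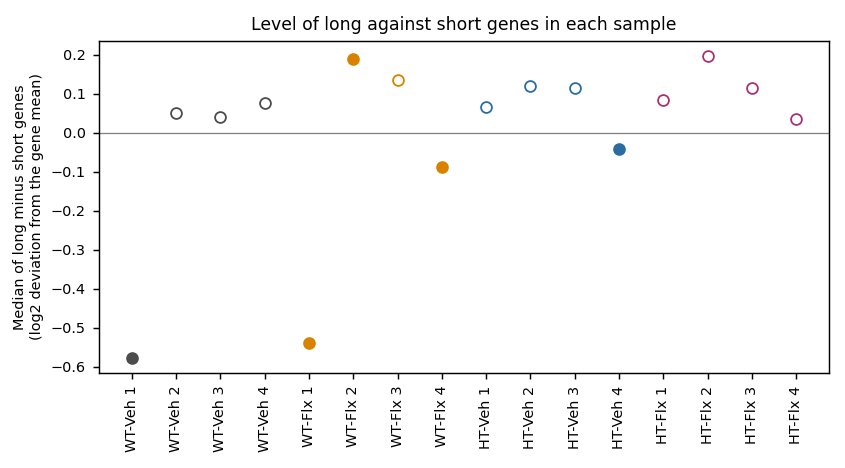
Difference between the median deviation of long genes (over 8000 bp of exons) and of short genes (under 2000 bp) in each of the 16 samples, on the log2 scale, with filled points for the 5 samples of high Eomes level. WT-Veh replicate 1 (-0.58) and WT-Flx replicate 1 (-0.54) lie far below the rest, which run from -0.088 to 0.20.

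Neuroblast genes were detected in every cortex sample, at very different levels. Of the 10 genes, 9 had a normalized count of at least 10 in all 16 samples, and Igfbpl1 reached 10 in 6 samples. Per 1 kb of exons, mean levels over all samples were highest for Dlx1 (184 normalized counts per kb), Dcx (144) and Dlx6os1 (104). They were 84.7 for Dlx2, 80.8 for Dlx5, 63.6 for Cd24a, 60.5 for Dlx6, 53.6 for Sox11 and 41.1 for Sp8. Igfbpl1 was lowest at 6.55 per kb. A few samples with high values raised these means, and by medians over all samples Dcx (136 per kb) was above Dlx1 (122) and Sp8 was at 12.1 per kb.

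Eomes, against which the members were set, split the samples. Its normalized counts were 899, 1.75, 14.8 and 3.17 in WT-Veh replicates 1 to 4 and 149, 318, 25.3 and 857 in WT-Flx. They were 6.997, 2.29, 6.05 and 240 in HT-Veh and 9.70, 5.14, 0 and 10.4 in HT-Flx. The widest gap in the sorted levels lay between 25.3 and 149. It left 5 samples above it (HT-Veh replicate 4, WT-Veh replicate 1 and replicates 1, 2 and 4 of WT-Flx) and 11 below. On the log2 scale this gap was 2.51, just over the 25% of the whole range (2.45) at which the samples were treated as separate clusters. WT-Flx had 3 such samples and HT-Flx none. In bulk tissue, fewer cells of a type and less RNA per cell cannot be told apart, here as in all results that follow.

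Among the markers of migrating neurons that are not Dlx or Sp factors, Dcx and Sox11 varied least of all 10 members, with a highest sample 2.64 and 2.26 times the lowest, and Igfbpl1 varied most. Dcx, the microtubule-binding protein of migrating neurons, was at 2082, 1965, 1832 and 1655 in WT-Veh replicates 1 to 4, at 1051, 2662, 1636 and 2776 in WT-Flx, at 2178, 2049, 1648 and 1704 in HT-Veh and at 1743, 1181, 1623 and 1433 in HT-Flx. The highest and the lowest sample were both WT-Flx, and the groups overlapped. Sox11, a transcription factor of immature neurons, was at 446, 353, 384 and 356 in WT-Veh, at 375, 531, 374 and 797 in WT-Flx, at 356, 357, 379 and 562 in HT-Veh and at 354, 583, 491 and 427 in HT-Flx. Most samples lay near the lowest value, and the high ones came from WT-Flx, HT-Veh and HT-Flx. Cd24a was at 458, 102, 125 and 91.3 in WT-Veh, at 136, 236, 125 and 375 in WT-Flx, at 84.8, 95.7, 81.0 and 206 in HT-Veh and at 81.6, 279, 58.7 and 91.7 in HT-Flx. In WT-Veh, HT-Veh and HT-Flx, 1 sample was far above the others, and in HT-Flx that sample (replicate 2) had an Eomes level of only 5.14. Igfbpl1, a secreted protein of the insulin-like growth factor binding family, was at 85.4, 3.93, 5.07 and 7.72 in WT-Veh, at 25.4, 29.7, 1.63 and 91.0 in WT-Flx, at 1.57, 0.83, 0.792 and 48.5 in HT-Veh and at 8.71, 24.96, 3.10 and 2.00 in HT-Flx. It was near 0 in most samples, and the same HT-Flx mouse was again the highest of its group.

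The transcription factors of the interneuron lineage varied together. Dlx1 was at 2658, 591, 655 and 710 in WT-Veh replicates 1 to 4, at 763, 1547, 666 and 3139 in WT-Flx, at 512, 545, 577 and 1224 in HT-Veh and at 578, 666, 497 and 544 in HT-Flx. Dlx2, its neighbour, was at 745, 174, 159 and 148 in WT-Veh, at 233, 304, 164 and 626 in WT-Flx, at 129, 136, 168 and 287 in HT-Veh and at 154, 155, 163 and 127 in HT-Flx. For both, the 5 samples of high Eomes level were the 5 highest of all 16. Dlx5 was at 489, 118, 106 and 109 in WT-Veh, at 184, 248, 154 and 515 in WT-Flx, at 88.1, 104, 125 and 247 in HT-Veh and at 125, 118, 94.6 and 102 in HT-Flx. Dlx6 was at 326, 87.9, 116 and 128 in WT-Veh, at 167, 168, 137 and 261 in WT-Flx, at 131, 122, 58.8 and 178 in HT-Veh and at 151, 112, 88.6 and 67.1 in HT-Flx. The same samples led again, although for Dlx6 the step from the low samples (up to 151) to the high ones (from 167) was small. Sp8, a zinc finger transcription factor needed for bulb interneurons, was at 992, 41.7, 57.7 and 48.5 in WT-Veh, at 138, 312, 84.6 and 749 in WT-Flx, at 42.2, 43.9, 52.3 and 259 in HT-Veh and at 41.9, 65.5, 33.7 and 32.6 in HT-Flx. All 4 WT-Flx samples were above all 4 HT-Flx samples. Dlx6os1 was at 768, 549, 500 and 439 in WT-Veh, at 289, 800, 443 and 1093 in WT-Flx, at 406, 432, 459 and 628 in HT-Veh and at 493, 382, 506 and 443 in HT-Flx. WT-Flx replicate 1, a sample of high Eomes level with low values of long genes, had the lowest Dlx6os1 and the lowest Dcx of all 16 samples.

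**Figure D2:**
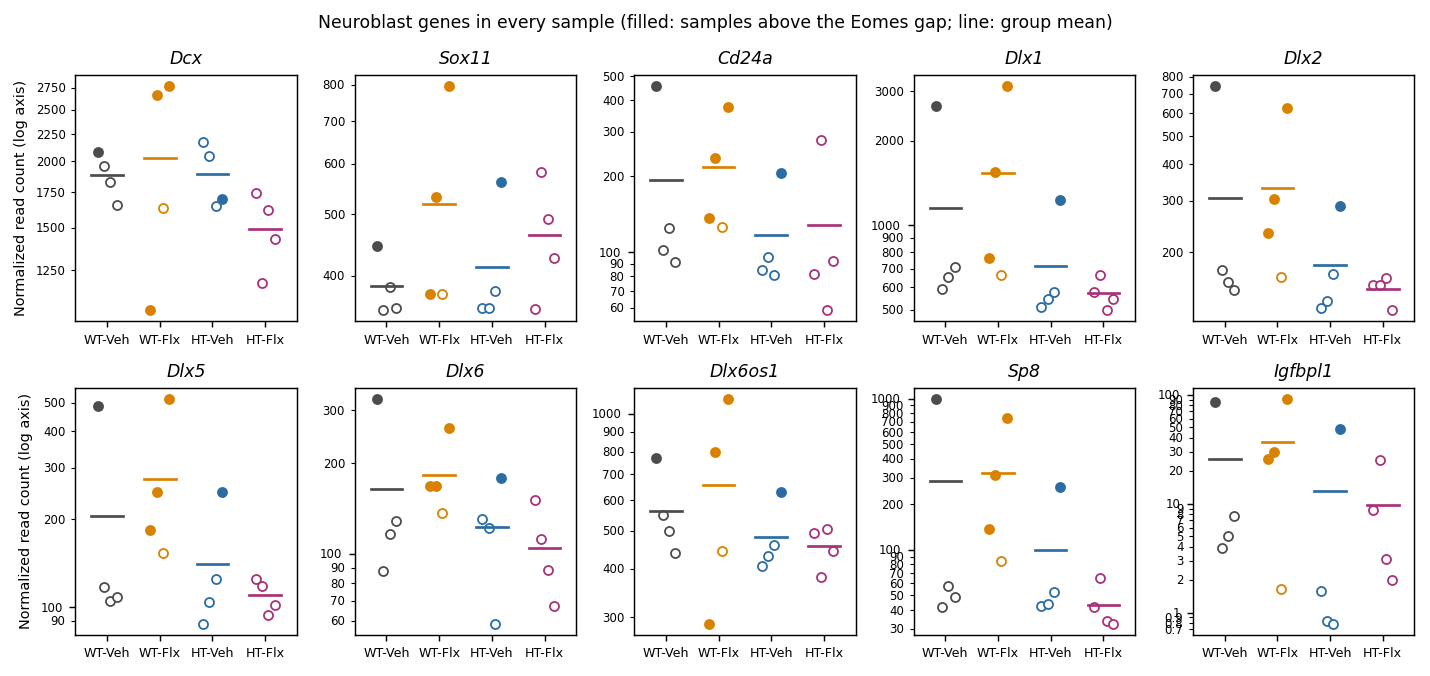
Normalized read counts (log axis) of the 10 neuroblast genes in each of the 16 samples by group, with filled points for the 5 samples above the gap in Eomes level and a line for the mean of 4 mice. Filled points are the highest of all samples for Dlx1, Dlx2, Dlx5, Dlx6, Sp8 and Igfbpl1, and are mixed with open ones for Dcx.

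Between the samples above and below the Eomes gap, medians differed by more than 7-fold for some members and hardly for others. The ratio of medians was 15.7 for Igfbpl1 (48.5 against 3.10), 7.11 for Sp8 (312 against 43.9), 2.68 for Dlx1, 2.57 for Cd24a, 2.29 for Dlx5 and 1.97 for Dlx2. It was 1.73 for Dlx6os1, 1.53 for Dlx6, 1.42 for Sox11 and 1.26 for Dcx. For 6 members (Dlx1, Dlx2, Dlx5, Dlx6, Sp8 and Igfbpl1) all 5 samples above the gap were higher than all 11 below it. Over all 17566 genes tested, 1.2% had this pattern. For Dlx6os1 it held in 4 of the 5 samples, for Dcx and Cd24a in 2 and for Sox11 in 1. Since the gap was set by Eomes and not by the groups, this comparison is a description. Igfbpl1 was among the genes tested only through the 5 samples above the gap and HT-Flx replicate 2.

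A slope on the Eomes level was then fitted for every gene with limma, as the log2 change of a gene per log2 unit of Eomes with the 4 group means removed. Of the 9 members at 10 or more in every sample, 6 rose with Eomes and none fell, where 3.35% of all genes rose and 4.79% fell. Their median slope was 0.23, against 0.0011 over all genes. Sp8 had the largest of these slopes, 0.49 (SE 0.054, limma adjusted p 6.66e-05). Slopes of the Dlx genes were 0.25 for Dlx1 (SE 0.035, limma adjusted p 6.09e-04), 0.24 for Dlx5 (SE 0.033, limma adjusted p 5.17e-04), 0.23 for Dlx2 (SE 0.037, limma adjusted p 0.00159) and 0.17 for Dlx6 (SE 0.040, limma adjusted p 0.0184). Cd24a had a slope of 0.26 (SE 0.048, limma adjusted p 0.00461). Igfbpl1, the 10th member, also passed (slope 0.62, SE 0.10, limma adjusted p 0.00227), but it entered the fit only through the samples above the gap and HT-Flx replicate 2, so its slope is a description. With it, 7 of 10 members were called. The members that did not pass were Dlx6os1 (0.10, SE 0.038, limma adjusted p 0.1000), Sox11 (0.074, SE 0.028, limma adjusted p 0.105) and Dcx (0.028, SE 0.034, limma adjusted p 0.645). Dlx6os1 passed under 5 of 30 alternatives (limma adjusted p 0.0131 to 1.00 over all 30). Sox11 passed under 3, with a pseudocount of 8 (limma adjusted p 0.0468), with sample weights (0.0299) and with Cdhr1 in place of Eomes (0.0291), and its adjusted p ran up to 1.00 over all 30. Dcx passed in none of 30 alternatives (limma adjusted p 0.264 to 1.00). The 95% interval of the Dcx slope, -0.043 to 0.099, lay below the intervals of Cd24a, Dlx1, Dlx2, Dlx5, Sp8 and Igfbpl1.

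**Figure D3:**
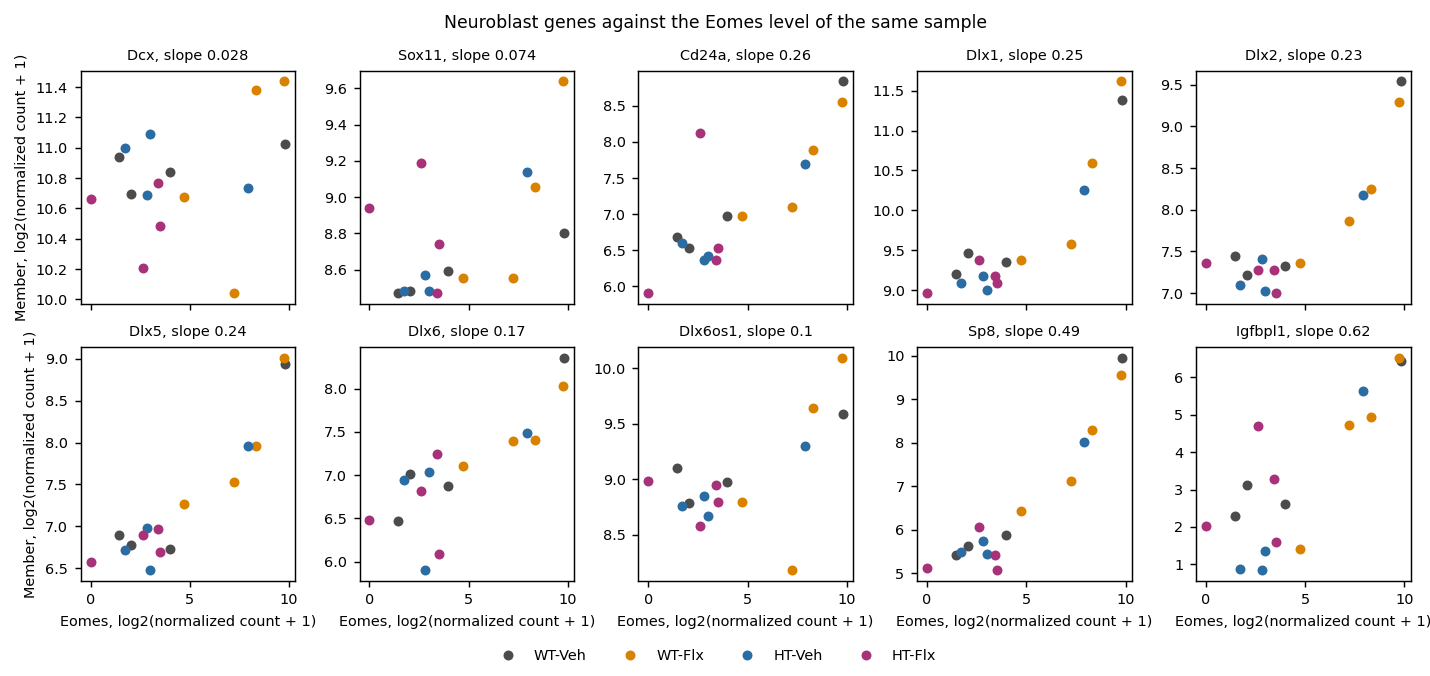
Level of each neuroblast gene against the Eomes level of the same sample, both as log2(normalized count + 1), in 16 samples coloured by group, with the fitted slope above each panel. Sp8 (slope 0.49) and the Dlx genes climb over the 5 samples on the right, whereas Dcx (slope 0.028) does not.

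These slopes rested on the samples of high Eomes level. Without those 5 samples, none of the 9 members tested passed limma, adjusted or unadjusted, and the Dlx2 slope was -0.043. Within the 11 samples below the gap, no member was correlated with Eomes at a permutation p under 0.05 (Pearson or Spearman, 10 members, unadjusted). The largest correlation was that of Sp8 (r = 0.57, permutation p 0.0641; rho = 0.39, permutation p 0.237), and it was 0.027 (exact permutation p 0.945) after leaving out the 2 samples farthest from the median Eomes level. With only 5 samples above the gap, no correlation was computed there. One sample mattered most: without WT-Veh replicate 1, limma called only Sp8 (9 members had an unadjusted p under 0.05). Without WT-Veh replicate 1 and WT-Flx replicate 1, the samples with low values of long genes, it called 4 members, Dlx1, Dlx5, Sp8 and Igfbpl1, and again 9 had an unadjusted p under 0.05. With the long-gene value as a covariate of all 16 samples it called 7, of which Dlx6os1 (slope 0.17) was 1 and Dlx6 (slope 0.15) was not. The Dcx slope was then 0.085 (limma unadjusted p 0.0282, adjusted p 0.264). Shares over all genes are not given for the fits of this paragraph, so its counts are not shown to exceed them.

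Genotype was compared under vehicle. In HT-Veh versus WT-Veh, 0 of the 9 members tested by limma passed (0.0178% of all genes did), and 0 had an unadjusted p under 0.05 (4.88% of all genes). Igfbpl1 was too low to be tested. Log2 differences ran from -0.55 for Sp8 (SE 0.97) to 0.082 for Sox11 (SE 0.16), with a median of -0.34 against 0.0062 over all genes. This direction depended on how the samples of high Eomes level were treated. Both groups had 1 such sample, with an Eomes level of 899 in WT-Veh (replicate 1) and 240 in HT-Veh (replicate 4). Without WT-Veh replicate 1 alone, 8 of the 9 differences were positive, with a median of 0.056, and Sp8 differed by 0.53 (SE 0.53). Again 0 members had an unadjusted p under 0.05 (7.43% of all genes). Without both high samples, 1 of the 9 differences was positive, and Dlx1 differed by -0.26 (limma unadjusted p 0.0171, adjusted p 0.345). With the Eomes level as a covariate, 7 of 9 were negative, with a median of -0.25. Cd24a and Dlx1 then had a limma unadjusted p under 0.05 (9.46% of all genes, in either direction). No member's groups were free of overlap, which was so for 3.84% of all genes.

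The comparison of drug and vehicle in HT mice asked whether early fluoxetine changed these genes in the mutant. In HT-Flx versus HT-Veh, 0 of 9 members passed in limma (0% of all genes), and 1 had an unadjusted p under 0.05 (3.07% of all genes). That gene was Dcx, with a mean of 1495 ± 245 after fluoxetine and 1895 ± 259 after vehicle (SD, n = 4 each). Its log2 difference was -0.35 (SE 0.13, limma unadjusted p 0.0184, adjusted p 1.00), and the groups overlapped, since HT-Flx replicate 1 (1743) was above HT-Veh replicates 3 and 4. Without HT-Veh replicate 4 it was -0.39, and without that sample and HT-Flx replicate 2 it was -0.29. Sp8 differed by -0.75 (SE 0.50), with the 1 high sample of HT-Veh (replicate 4) at 259. Without that sample it differed by -0.14 (SE 0.28), and 7 of 9 members had a positive difference, where with it 8 of 9 were negative. Groups did not overlap for 0 members and for 1.99% of all genes.

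In wild type mice the differences with fluoxetine were positive for 10 of 10 members, and none passed. Igfbpl1 entered this fit only through the samples above the Eomes gap, so its difference is a description. In WT-Flx versus WT-Veh, limma called 0 of 10 members (0% of all genes), 0 had an unadjusted p under 0.05 (4.2% of all genes) and 0 had groups without overlap (2.89% of all genes). The median log2 difference was 0.37, against -0.00091 over all genes. The largest was that of Sp8, at 285 ± 472 in WT-Veh and 321 ± 302 in WT-Flx, a log2 difference of 1.13 (SE 0.99). The SD of Sp8 exceeded its mean in WT-Veh, as 1 of 4 samples stood at 992. This comparison depended on which samples entered it. Without WT-Veh replicate 1 and WT-Flx replicate 1, 7 of 9 members had an unadjusted p under 0.05 in limma, where 15.2% of all genes did, and 0 passed after adjustment. Sp8 then differed by 2.45 (SE 0.61, limma adjusted p 0.179) and Dlx5 by 1.28 (SE 0.35, limma adjusted p 0.187). This choice also removes the only WT-Veh sample of high Eomes level and leaves WT-Flx replicates 2 and 4 (318 and 857), so drug and Eomes level cannot be told apart in it. With the Eomes level as a covariate of all 8 samples, 9 of 10 differences were negative, with a median of -0.42, and 3 members (Cd24a, Dlx2 and Sp8) were lower in WT-Flx at an unadjusted p under 0.05 (6.92% of all genes, in either direction).

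The largest differences between groups were those of genotype in fluoxetine-treated mice. For HT-Flx versus WT-Flx, all 10 members had a lower mean log2 level in HT-Flx, with a median log2 difference of -0.93 against 0.0081 over all genes. Igfbpl1 entered this fit only through WT-Flx replicates 1, 2 and 4 and HT-Flx replicate 2, so its difference is a description. Limma called 0 of the 10 (0.0417% of all genes), and 5 had an unadjusted p under 0.05, all lower in HT-Flx (10.4% of all genes, in either direction). These were Sp8, with 43.4 ± 15.3 in HT-Flx and 321 ± 302 in WT-Flx and a log2 difference of -2.43 (SE 0.53, limma adjusted p 0.289), and Dlx5, with 110 ± 14.0 and 275 ± 164 and a log2 difference of -1.16 (SE 0.31, limma adjusted p 0.312), and further Dlx1 (-1.14), Dlx2 (-0.97) and Dlx6 (-0.82). Groups did not overlap for 4 members (Dlx1, Dlx2, Dlx5 and Sp8), as for 5.83% of all genes. The separation was very narrow for Dlx1 (666.1 in WT-Flx replicate 3, 665.9 in HT-Flx replicate 2). It was also narrow for Dlx2 (163.9 in WT-Flx replicate 3, 162.9 in HT-Flx replicate 3). Dcx differed by -0.35 (SE 0.26) and Sox11 by -0.11 (SE 0.23). Without WT-Flx replicate 1, the sample with low values of long genes, 7 of 9 members had an unadjusted p under 0.05, all lower in HT-Flx (11.2% of all genes, in either direction), and limma called 0. Dcx then differed by -0.63 (SE 0.19) and Sp8 by -2.67 (SE 0.58). Without WT-Flx replicate 3, the only WT-Flx sample below the Eomes gap, Sp8 differed by -2.90 and limma called it (adjusted p 0.0374). Over all 18 alternatives the adjusted p of this Sp8 difference ran from 0.0374 to 1.00.

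The Eomes level of the same samples moved with this difference. It was at 149, 318, 25.3 and 857 in WT-Flx and at 0 to 10.4 in HT-Flx. With it as a covariate, limma called 0 of 10 members and 0 had an unadjusted p under 0.05 (1.64% of all genes). Differences were then positive for 8 of 10 members, with a median of 0.28. Sp8 went from -2.43 to -0.34 (SE 0.71), Dlx5 from -1.16 to 0.024 (SE 0.42) and Dlx1 from -1.14 to 0.38 (SE 0.49). Standard errors were larger with the covariate for these genes (0.53, 0.31 and 0.38 without it). Eomes levels of HT-Flx and WT-Flx did not overlap, so genotype and Eomes level cannot be told apart in these 8 mice.

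**Figure D4:**
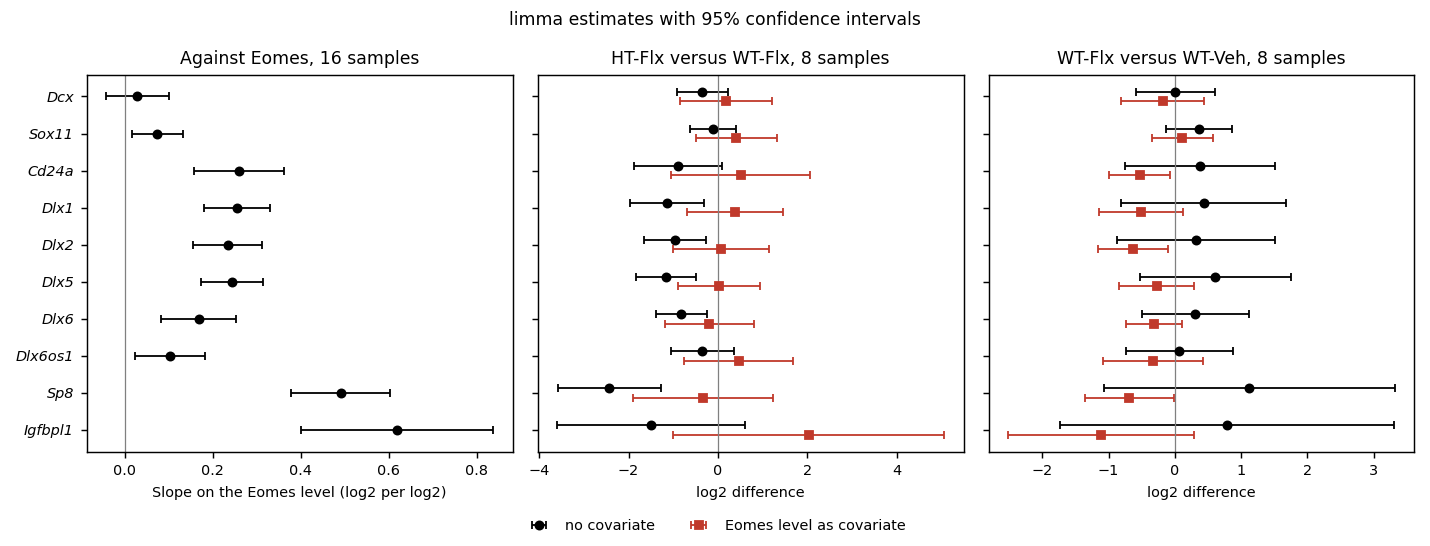
limma estimates of the 10 neuroblast genes with 95% confidence intervals, as slopes on the Eomes level (left, log2 per log2 unit, 16 samples) and as log2 differences in HT-Flx versus WT-Flx and WT-Flx versus WT-Veh (8 samples each). Circles are fits without and red squares with the Eomes level as a covariate. In HT-Flx versus WT-Flx, Sp8 lies at -2.43 without the covariate and at -0.34 with it.

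Over both treatments, all 10 members were again lower in HT than in WT mice, by a median of -0.70 (0.0044 over all genes). Igfbpl1 entered this fit and that of the interaction only through the samples above the Eomes gap and HT-Flx replicate 2. Limma called 0 of 10 (0.0398% of all genes), and 5 had an unadjusted p under 0.05 (11.9% of all genes), namely Dlx1 (-0.81), Dlx2 (-0.71), Dlx5 (-0.73), Dlx6 (-0.58) and Sp8 (-1.49, SE 0.63, limma adjusted p 0.391). With the Eomes level as a covariate the median was -0.080 and 0 had an unadjusted p under 0.05 (5.02% of all genes). Without the samples above the Eomes gap, 2 of 9 differences were positive. Dlx1 then differed by -0.25 (limma unadjusted p 0.0150, adjusted p 0.654) and Sp8 by -0.41 (limma unadjusted p 0.119). Without WT-Veh replicate 1 and WT-Flx replicate 1, limma again called 0 and 2 had an unadjusted p under 0.05. Whether the change with fluoxetine differed between the genotypes was tested as an interaction, that is, the change in HT minus that in WT. It was negative for 10 of 10 members (median -0.45, 0.0021 over all genes), and limma called 0 (0% of all genes), with 0 at an unadjusted p under 0.05 (4.29% of all genes). The interaction of Sp8 was -1.88 (SE 1.22). The covariate turned the direction of 9 of the 10 interactions, to a median of 0.37. Only Igfbpl1 (2.82) was then at an unadjusted p under 0.05 (5.58% of all genes). Without WT-Veh replicate 1 and WT-Flx replicate 1 limma called 0 of 10, with 5 at an unadjusted p under 0.05. Shares over all genes are not given for the fits without these samples, so their counts are not shown to exceed them. These fits also lack the only WT-Veh sample of high Eomes level.

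Markers of other cells were set beside the members. Among 12 further transcription factors of bulb interneurons and their precursors, 9 rose with Eomes in limma and none fell (Gsx2 was not in the table). Of the 4 with the highest levels, Meis2 (slope 0.14), Tshz1 (0.18) and Zic1 (0.14) rose, and Etv1 (0.0024) did not pass. Markers of mature bulb interneurons rose in 6 of 6 cases, among them Calb2, a calcium-binding protein of periglomerular cells (slope 0.49), and Th, the rate-limiting enzyme of dopamine synthesis (0.67). Of 6 further markers of bulb projection neurons, 5 rose, with slopes of 0.65 for Cdhr1 and 0.57 for Doc2g. Ebf3 (0.15, limma adjusted p 0.0616) did not pass, and Lhx1 and Lhx5 were not in the table. Among the bulb markers that rose, Scgn, Tbx21 and Barhl2 had low mean log2 levels (3.73, 4.23 and 1.95). They may have entered the fit, like Igfbpl1, through the samples above the gap, so their slopes are a description. Summed over these 6 genes, without Eomes itself, bulb projection neuron markers were at 198 to 341 in the 11 samples below the Eomes gap and at 1392 to 6764 in the 5 above it, and the summed bulb interneuron markers were at 4301 to 6138 and at 8580 to 15481. The members that rose with Eomes were thus high in the same samples as markers of mature bulb neurons, and the part of bulb tissue in their levels was not tested.

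Of 10 listed genes of stem cells and cell division, 0 were called by limma in either direction (1, Egfr, had an unadjusted p under 0.05). Slopes were 0.027 for Pcna, 0.039 for Sox2, -0.061 for Egfr and 0.011 for Nes. The largest were those of Cdk1 (0.17, SE 0.097), Ccnb1 (0.11, SE 0.064) and Top2a (0.11, SE 0.059), named after their values were seen. Mki67, a marker of cycling cells, was at 16.2 to 58.1 below the gap and at 34.3 to 81.1 above it. Of 11 cytoskeletal genes of young neurons, 4 rose and none fell, and the 4 with the highest levels did not pass, with slopes of 0.023 for Stmn1, -0.0091 for Stmn2, 0.034 for Tubb3 and 0.019 for Crmp1. The genes that rose were Marcksl1 (0.13), Dclk2 (0.067), Dpysl3 (0.058) and Nrep (0.057), named after their values were seen. Of 19 genes of migration and guidance tested, 2 rose and 1 fell. The 4 with the highest levels were Dclk1 (-0.034), Pafah1b1 (-0.0099), Cdk5r1 (0.0035) and Tnr (-0.10, limma adjusted p 0.0139), an extracellular matrix protein that fell. Those that rose were Reln (0.12), a secreted guide of migrating neurons that bulb projection neurons also make, and Prokr2 (0.26), the receptor of a bulb chemoattractant, both named after their values were seen. Prok2, its ligand, was at 17.6 or less and was not tested. Tnr was lowest in the samples with low values of long genes, at 2666 in WT-Veh replicate 1 and 3758 in WT-Flx replicate 1. Slopes were positive for 9 of the 10 genes of stem cells and cell division, and a slope that did not pass is not shown to be 0. Whether the members' levels follow the number of neuroblasts was not tested, and the members are called here by the name of their list.

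Other cell types were also looked at. Of 11 genes of cortical GABA neurons, 3 rose and 2 fell. Gad1, which makes GABA, had a slope of 0.15, Gad2 one of 0.058, Lamp5 one of -0.039 (limma adjusted p 0.266) and Sst one of -0.0020 (limma adjusted p 0.965). The third that rose was Slc32a1 (0.085), and those that fell were Pvalb (-0.077) and Lhx6 (-0.079), named after their values were seen. Of 6 genes of cortical glutamatergic neurons, 2 fell (Slc17a7, -0.042, and Cux2, -0.092), and Tbr1 (-0.030) and Neurod6 (-0.043) did not pass. Of 7 genes of striatal neurons, Penk (0.19) rose and the rest did not pass. Of 4 genes of oligodendrocyte precursors and 4 tested genes of ependymal cells, limma called 0, with 0 at an unadjusted p under 0.05. No gene of these lists was called in a comparison between groups.

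**Figure D5:**
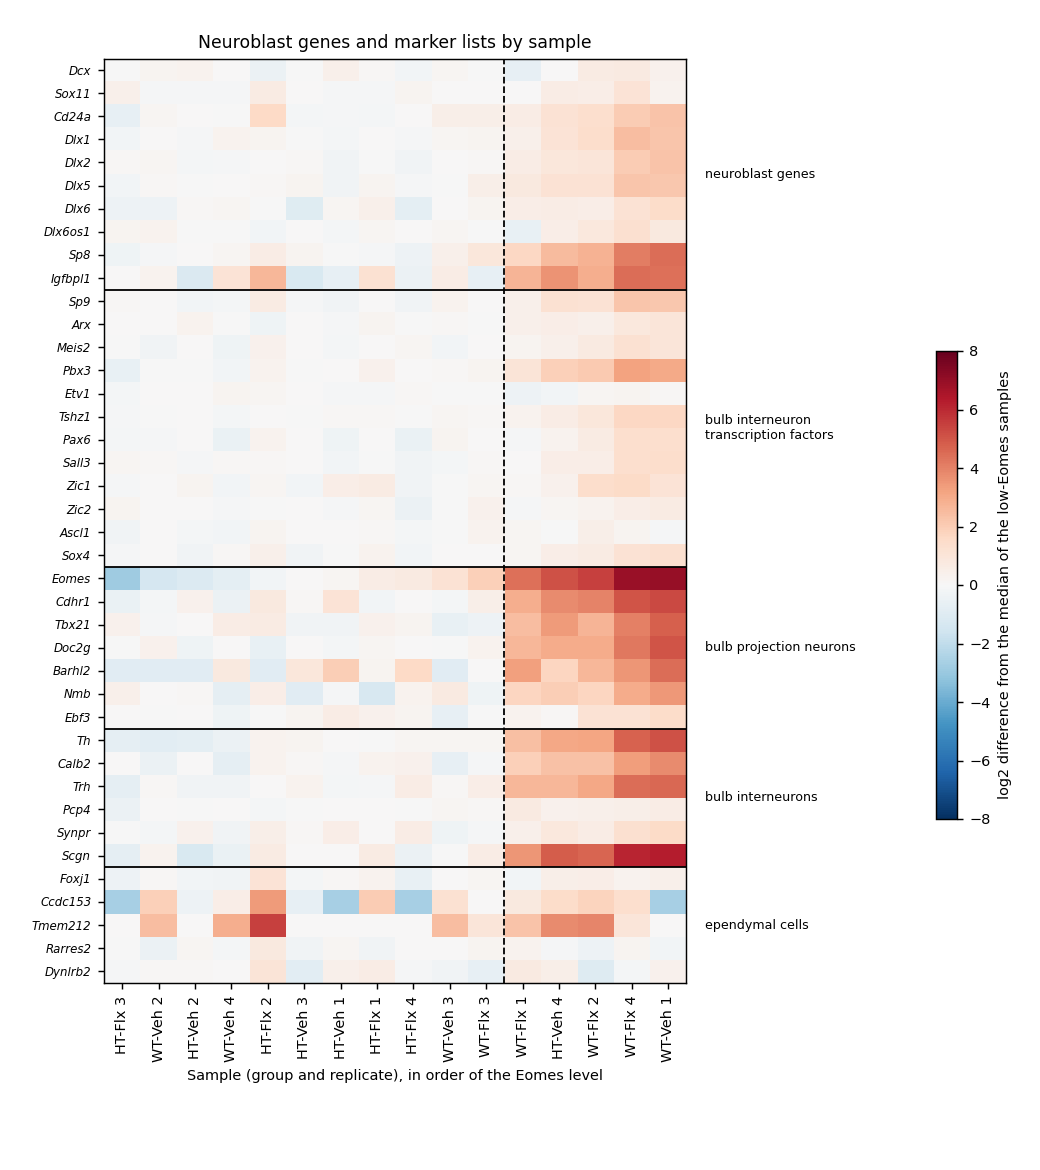
log2(normalized count + 1) of the 10 neuroblast genes and of marker lists in 16 samples, as the difference from the median of the 11 samples below the Eomes gap (dashed line), with samples in order of their Eomes level. The 5 samples on the right are red for bulb markers, Sp8 and Igfbpl1, and HT-Flx replicate 2, left of the line, is red for Cd24a, Igfbpl1 and ependymal genes.

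HT-Flx replicate 2 showed a different set of members. Its Cd24a (279), Igfbpl1 (24.96) and Sox11 (583) were the highest of the 11 samples below the Eomes gap. Dlx1 (666), Dlx2 (155), Dlx5 (118) and Dlx6 (112) lay within the range of the others. Dcx (1181) and Dlx6os1 (382) were the lowest of the 11. The same sample had the highest values of all 16 for the ependymal genes Foxj1 (188), Ccdc153 (63.9) and Tmem212 (43.4), and its sum over the 5 ependymal genes was 435, where the other samples reached 232 at most. Sp8 was 65.5 there, within the range of the samples below the gap (32.6 to 84.6). The part of ventricular lining in these levels was not tested.

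The genes whose levels ran most like the members were sought among 17557 genes, by Spearman's rho over the 16 samples with the mean of the members' standardised log2 levels. The closest were Adamts19 (rho 0.953), a secreted metalloprotease, Shb (0.941), a signalling adaptor, Vipr2 (0.938), a receptor of vasoactive intestinal peptide, Cyth2 (0.926), an exchange factor of small GTPases, and Pclaf (0.926), a partner of the replication clamp. The samples share their libraries across genes, so these values are a description. Adamts19 was at 292 in WT-Veh replicate 1, at 363 in WT-Flx replicate 4 and at 0 to 11.9 in the samples below the gap. Since these genes were chosen for running like the members in the same 16 samples, no test is given for them.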

How the data were processed

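RNA was measured in the medial prefrontal cortex of 16 mice, and groups and replicate numbers were read from the sample titles. As the authors describe, poly-A RNA was made into stranded libraries, read as paired ends, quantified with Salmon 1.1.0 on GRCm38 with correction for GC bias, summed per gene and normalized in DESeq2 1.30.1. The deposited signal is the normalized read count of each gene. Values were not whole multiples of a step, so depth is unknown. The table held 18424 genes, 18411 with a symbol. Positions are from GENCODE M21.

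Genes that reached 10 in 4 or more samples of a fit were tested with limma 3.58.1 (R 4.3.3) on log2(value + 1), with trend. Fold changes on this scale understate those of low genes. P-values were two-sided, adjusted by Benjamini and Hochberg over all genes tested, threshold 0.05. Pairs of groups used 8 samples. Genotype over both treatments (with treatment as a term), the interaction and the Eomes slope (with group terms, Eomes itself left out) used 16. Correlations had permutation p-values (100000 permutations where there were 10 or more samples, otherwise exact). Each sample is from 1 mouse. Motifs were searched on both strands. Members, all 12 gene lists and the tests were chosen with earlier results of these data known. In the lists, the 4 genes with the largest mean were named, with all members, Eomes, Arid1b and the 5 most similar genes. Of the genes first listed, 2 are not reported here. The fits were tested on simulated data. Alternatives were pseudocounts of 0.1 and 8, no filter or a mean of at least 100, upper quartile and quantile scaling, sample weights, a replicate block, leaving out each mouse, all 4 groups in a fit, an Eomes covariate, Cdhr1 for Eomes, no group terms and leaving out the samples above the Eomes gap. Leaving out HT-Flx replicate 2, or the samples with low values of long genes, and a long-gene covariate were added after seeing the data.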

Additional observations from a re-analysis of the deposited data

Results flagged for a closer look

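In each group of 4 mice, a member's highest or lowest sample was marked where its distance to the next one exceeded Dixon's 95% critical share of the range for 4 values. Of 40 pairs of gene and group, 13 were marked, each time for the highest sample, where chance marks about 1 in 20 of normally distributed values. The marks were set on normalized counts and not on log2 levels, and such counts can be skewed, so this rate is only a rough guide. The 10 genes share their libraries, so these marks are not independent.

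WT-Veh replicate 1 accounted for 7 of them. Its normalized counts were 458 for Cd24a (the next sample of the group was at 125), 2658 for Dlx1 (710), 745 for Dlx2 (174), 489 for Dlx5 (118), 326 for Dlx6 (128), 992 for Sp8 (57.7) and 85.4 for Igfbpl1 (7.72). This sample also had the highest Eomes level (899) and low values of long genes. HT-Veh replicate 4, with an Eomes level of 240, had 562 for Sox11 (next 379), 206 for Cd24a (95.7), 1224 for Dlx1 (577), 259 for Sp8 (52.3) and 48.5 for Igfbpl1 (1.57). In HT-Flx replicate 2, with an Eomes level of 5.14 and the highest ependymal markers, Cd24a was at 279 (next 91.7). No sample of WT-Flx was marked, a group in which 3 of 4 samples had a high Eomes level.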

How the results depend on the processing

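The count of members that rose with Eomes was 7 as reported, or 6 of 9 without Igfbpl1, whose slope is a description. The count over all members tested stayed within 1.5 times of 7 under 26 of 30 alternatives, from 6 to 9. It was 0 without the samples above the Eomes gap and 0 when HT-Flx replicate 2 was left out as well, and 4 without both samples with low values of long genes. Leaving out each mouse gave 1 (without WT-Veh replicate 1) to 8. Without the samples above the gap the Dlx2 slope turned to -0.043, and to -0.045 when HT-Flx replicate 2 was also left out; fewer samples and a narrower range of Eomes entered these fits. With the replicate number as a block, 6 members rose. In no comparison of groups did all same-numbered samples deviate together at a correlation over 0.1, so the numbers were not used as pairs. Correlations ran from -0.23 to 0.31. The highest was that of WT-Veh replicate 1 and WT-Flx replicate 1, the samples with low values of long genes.

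The count of members called was 0 in each comparison of groups, and 0 in HT-Veh versus WT-Veh, HT-Flx versus HT-Veh, WT-Flx versus WT-Veh, genotype over both treatments and the interaction under every alternative run, the replicate block included. In HT-Flx versus WT-Flx leaving out each mouse gave 0 to 1 (Sp8, without WT-Flx replicate 3), and the other alternatives 0. Other scalings moved the median of all genes by at most 0.023 (log2). Leaving out the samples above the Eomes gap was not run for WT-Flx versus WT-Veh, HT-Flx versus WT-Flx or the interaction, since WT-Flx would keep 1 mouse. With 4 mice a group, depth unknown and Igfbpl1 near 0 in most samples, a miss of the threshold does not show that levels were equal.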
